A study of Mus musculus with 21 samples.

Results

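The miR-221 and miR-222 cluster was followed through the 4 rows of the count table that carry its mature names, mmu-miR-221-3p, mmu-miR-221-5p, mmu-miR-222-3p and mmu-miR-222-5p (the species prefix mmu is left out hereafter), of the 1647 mature miRNAs listed. The rule that selects these rows uses their names and no measured value. Small RNA had been sequenced from untreated wild-type mice in 2 organs of the hearing pathway. The first was the cochlea, from which the sensory epithelium with its hair cells and supporting cells was dissected, and the second was the superior olivary complex (SOC), a set of brainstem nuclei that compare sound between the ears. The sampling ages were embryonic day 16 (E16), the day of birth (P0) and postnatal day 16 (P16), when mice hear. There were 2, 4 and 4 cochlea libraries at E16, P0 and P16, against 4, 4 and 3 of the SOC. Every library pooled tissue of several animals of both sexes, C57BL/6JOlaHsd mice for the cochlea and C57Bl6/J mice for the SOC, so that the replicates are biological repeats of pools and not single animals. The SOC region was cut from frozen tissue on a cryostat, and both organs are mixtures of cell types, although the labels call the SOC samples neuronal.

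A miRNA is cut from a hairpin-shaped precursor, and either arm of the hairpin, named 5p and 3p, can be loaded into the silencing complex. The loaded strand finds its target mRNAs mainly through its seed, the short stretch behind the first base, so that miRNAs with the same seed share most of their predicted targets. The miR-221 and miR-222 hairpins lie side by side on the X chromosome, are made from a common primary transcript, and are best known for repressing the cell-cycle inhibitors Cdkn1b (p27Kip1) and Cdkn1c (p57Kip2) and the receptor Kit. They are abundant in blood vessels and in many proliferating cells. In the embryonic cochlea, Cdkn1b is the inhibitor that marks the exit of hair cell and supporting cell precursors from the cell cycle.

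The mature sequences show why the pair is treated as a family of 3p arms. In the lines that follow, taken from RefSeq (GRCm38.p6), the seed (bases 2 to 8) is in capitals.
miR-221-3p: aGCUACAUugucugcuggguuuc
miR-222-3p: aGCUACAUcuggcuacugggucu
miR-221-5p: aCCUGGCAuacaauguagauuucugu
The 3p arms share their first 8 bases and then part. Compared position by position, with no gap allowed, they have identical bases at 11 of their 23 positions (47.8%). They map to chrX:19146307-19146329 (miR-221-3p) and chrX:19146901-19146923 (miR-222-3p), both on the minus strand. The seed of miR-221-5p, at chrX:19146344-19146369, is unrelated and was found in no other mature mouse miRNA of the 1679 in the table. miR-222-5p is the remaining member. The seed of the 3p arms was also found in miR-1928, a name that the count table does not hold. Of the 1647 names in the count table, 1415 were matched to RefSeq.

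The hairpins are shown to place the arms, which are in capitals.
Mir221: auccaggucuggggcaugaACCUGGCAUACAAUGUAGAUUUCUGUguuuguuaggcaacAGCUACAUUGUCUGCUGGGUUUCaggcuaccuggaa
Mir222: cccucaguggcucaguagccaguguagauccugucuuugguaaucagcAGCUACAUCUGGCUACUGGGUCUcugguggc
Mir221 (chrX:19146294-19146388, 95 bases) and Mir222 (chrX:19146893-19146971, 79 bases) are separated by 504 bases on the minus strand. In Mir221 the 5p arm spans bases 20 to 45 and the 3p arm bases 60 to 82, and in Mir222 the 3p arm spans bases 49 to 71. Neither hairpin lies inside another gene of the GENCODE annotation, and the next gene towards higher coordinates is Gm14636, a processed transcript on the same strand at chrX:19156981-19167241.

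Matches to the shared seed in the known targets are shown because they are what links the pair to the cell cycle. The motif ATGTAGC, the reverse complement of the seed, was searched on the sense strand of the longest annotated 3′ UTR of each protein-coding gene, and it is in capitals in the following windows of 30 bases.
Cdkn1b: cctctaaaagcattggATGTAGCattgcgc
Cdkn1c: ctgggacctttcgttcATGTAGCaggaacc
Kit first match: taatgatgggagatatATGTAGCaagacta
Kit second match: ttttgtaaatattgaaATGTAGCaataatg
The windows lie at chr6:134924415-134924444 (Cdkn1b), chr7:143458919-143458948 (Cdkn1c, minus strand), chr5:75654976-75655005 and chr5:75656507-75656536 (Kit). In each of them the motif is followed by an A. The motif occurred in 9.46% of 21004 3′ UTRs, and in 23.1%, 4.88% and 15.0% of those within 10% of the length of the Cdkn1b, Cdkn1c and Kit UTR. A match is a description of the letters and not a measured site, and the mRNAs themselves were not analysed here.

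Totals per library were 124400 to 447419 counts in the cochlea and 8309669 to 18053698 in the SOC, and the organs were prepared with different kits, so that levels are compared only within an organ. Values are CPM, the counts of a miRNA relative to the library total after its scaling by the TMM method of edgeR. The SOC libraries fell into 3 sets that cross the time points and that no label names. Set A (E16 and P0, replicates 2 and 3) carried 17.2% to 19.6% of its counts on miR-99b-5p, set C (the fourth P0 library and P16 replicates 2 and 3) carried 0.277% to 0.322% on miR-191-5p, and set B held the other 4 libraries. SOC results are therefore also given by set, or after fitting the set as a covariate. Neuronal miR-124-3p and miR-9-5p summed to 24422 to 115777 CPM in the SOC, and the hair cell miRNAs of the miR-183 cluster to 16693 to 55891 CPM in the cochlea, but the latter also reached 85041 to 164668 CPM in the SOC at E16, against 521 to 3502 at P16.

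Across the libraries of an organ, the 3p arms stood above their 5p arms, which were near the floor in the cochlea. In the cochlea, miR-222-3p ranked 173 and miR-221-3p ranked 206 of 896 miRNAs tested, with means of 226 ± 71.7 and 162 ± 69.6 CPM (SD, n = 10 libraries). In the SOC, miR-221-3p ranked 134 of 694 with 193 ± 63.2 CPM (n = 11), miR-222-3p ranked 223 with 54.8 ± 28.5, miR-221-5p ranked 288 with 21.6 ± 20.9 and miR-222-5p ranked 614 with 1.07 ± 1.02. The cochlea held only 11 counts of miR-221-5p and 1 count of miR-222-5p in all 10 libraries.

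**Figure D1:**
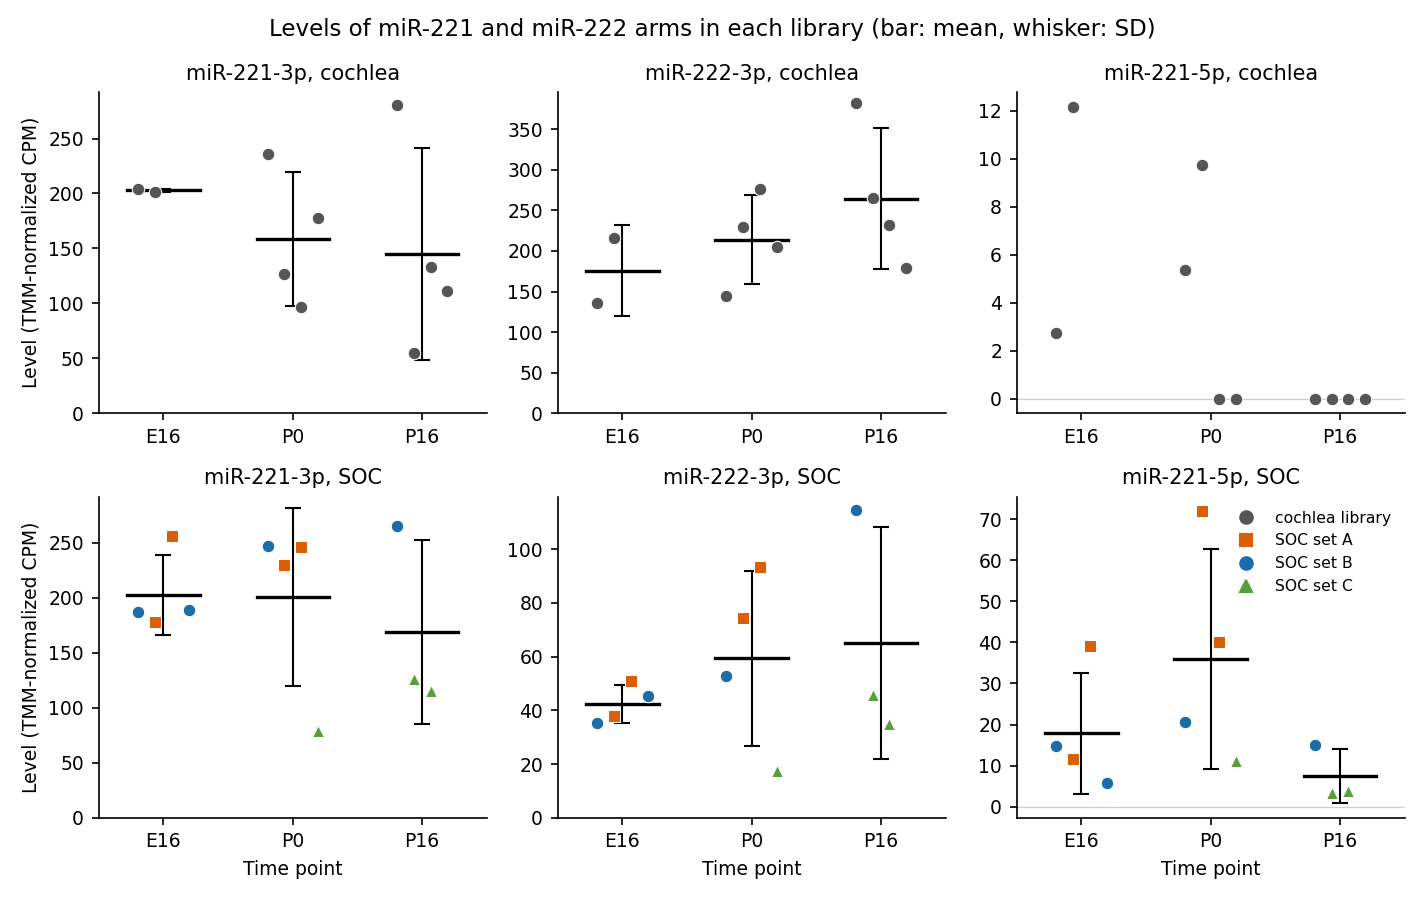
Level of miR-221-3p, miR-222-3p and miR-221-5p (TMM-normalized CPM, vertical axis) in each library at E16, P0 and P16, with the cochlea in the upper row and the SOC in the lower row. Points are libraries, bars are means and whiskers SD (none is drawn for miR-221-5p in the cochlea, which is at 0 to 7 counts); the 3 set C libraries of the SOC (triangles) lie lowest for miR-221-3p, at 79.3 to 126 CPM.

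In the cochlea neither 3p arm changed past the test between any pair of time points. Over both organs and all 4 members 0 of 21 tests met the call rule, and 2 had an unadjusted edgeR p under 0.05, both for miR-221-5p. A miRNA was called when its Benjamini-Hochberg adjusted p from the quasi-likelihood test of edgeR was under 0.05, its fold change was over 1.5 and the libraries of the time points did not overlap. By this rule 24.4% of the 896 miRNAs tested in the cochlea were called at P0 vs E16, 29.6% at P16 vs E16 and 10.5% at P16 vs P0. As in any bulk sample, fewer cells of a type and less RNA per cell cannot be told apart.

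miR-221-3p stood at 204 and 202 CPM in the E16 cochlea libraries, at 235, 127, 96.4 and 177 CPM at P0 and at 281, 54.5, 133 and 112 CPM at P16. The E16 libraries were close together, whereas the P0 and P16 libraries lay on both sides of them, and the time points overlapped. The lowest value rested on 7 counts and the highest on 55. Between E16 and P0 the log2 fold change was -0.35 (SE 0.507, 95% interval -1.34 to 0.65), -0.45 at P16 vs E16 (SE 0.510, -1.45 to 0.54) and -0.11 at P16 vs P0 (SE 0.441, -0.97 to 0.76). The adjusted p from edgeR was 0.651, 0.492 and 0.942. A fall to 0.365 of the E16 level and a rise to 1.46 times that level both lay inside the interval at P16.

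miR-222-3p was at 136 and 216 CPM at E16, at 144, 229, 276 and 205 CPM at P0 and at 383, 265, 232 and 179 CPM at P16. Its group means were 176 ± 56.3 (n = 2), 214 ± 54.8 (n = 4) and 265 ± 86.4 CPM (n = 4), and 3 of 4 P16 libraries lay above both E16 libraries. Between E16 and P0 the log2 fold change was 0.27 (SE 0.492, -0.69 to 1.24), 0.59 at P16 vs E16 (SE 0.497, -0.38 to 1.57) and 0.32 at P16 vs P0 (SE 0.409, -0.48 to 1.12), with adjusted p from edgeR of 0.718, 0.349 and 0.669. Both comparisons with E16 share the same E16 libraries. Replicate 1 of P16 was the highest of its group for both 3p arms, and it also had the most miR-126a-3p, the miRNA of endothelial cells, with 6972 CPM against 2048 to 3540 in the other P16 libraries. Across the time points miR-126a-3p was at 6030 and 6281 CPM at E16 and at 739 to 1429 CPM at P0, where the levels of the pair overlapped with those of E16. The part of these differences in the results was not tested.

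In the SOC the 3p arms did not pass the test either, and the library sets moved with their levels. By the same rule 6.63% of the 694 miRNAs tested in the SOC were called at P0 vs E16, 41.2% at P16 vs E16 and 16.1% at P16 vs P0.

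miR-221-3p was at 187, 178, 256 and 189 CPM at E16, at 247, 230, 246 and 79.3 CPM at P0 and at 265, 126 and 115 CPM at P16. The group means of 203 ± 36.2 (n = 4), 201 ± 81.2 (n = 4) and 169 ± 83.4 CPM (n = 3) hide a gap inside P0 and inside P16, where the low libraries were those of set C. Between E16 and P0 the log2 fold change was -0.013 (SE 0.427, 95% interval -0.94 to 0.91), -0.26 at P16 vs E16 (SE 0.464, -1.27 to 0.75) and -0.25 at P16 vs P0 (SE 0.464, -1.26 to 0.76). The adjusted p from edgeR was 0.992, 0.658 and 0.720. Within set B the level was 187 and 189 CPM at E16, 247 at P0 and 265 at P16, within set A it was 178 and 256 CPM at E16 and 230 and 246 at P0, and within set C it was 79.3 CPM at P0 and 126 and 115 at P16. With the set as a covariate the log2 fold change turned to 0.60 at P16 vs E16 (SE 0.261, adjusted p from edgeR 0.0660), 0.19 at P0 vs E16 (0.494) and 0.41 at P16 vs P0 (0.183).

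miR-222-3p was at 35.2, 38.0, 51.0 and 45.2 CPM at E16, at 52.6, 74.4, 93.2 and 17.3 CPM at P0 and at 115, 45.6 and 35.0 CPM at P16. Outside set C, every P0 and P16 library lay above every E16 library, whereas the set C libraries lay within or below the E16 range. Over all libraries the log2 fold change from E16 to P0 was 0.49 (SE 0.515, 95% interval -0.63 to 1.61), 0.62 at P16 vs E16 (SE 0.552, -0.58 to 1.82) and 0.13 at P16 vs P0 (SE 0.554, -1.07 to 1.34), with adjusted p from edgeR of 0.633, 0.377 and 0.883. Within set B the level was 35.2 and 45.2 CPM at E16, 52.6 at P0 and 115 at P16, within set A it was 38.0 and 51.0 CPM at E16 and 74.4 and 93.2 at P0, and within set C it was 17.3 CPM at P0 and 45.6 and 35.0 at P16. In each set the later libraries were thus the higher ones.

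With the set as a covariate miR-222-3p changed by 0.67 on the log2 scale at P0 vs E16 (SE 0.223, adjusted p from edgeR 0.0371), 1.73 at P16 vs E16 (SE 0.287, 0.000188) and 1.06 at P16 vs P0 (SE 0.274, 0.00747). It was still not called, because the unadjusted levels of the time points overlapped. The covariate moved the median change over all miRNAs by -0.13 at P0 vs E16 and by -0.25 at P16 vs E16. The sets were drawn from the counts and are not known to be batches, set C held no E16 library and set A no P16 library. The 3 set C libraries had 3736 to 7482 CPM of the endothelial miR-126a-3p, against 821 to 1361 CPM in the other 8 SOC libraries, and its part in the levels of the pair was not tested.

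**Figure D2:**
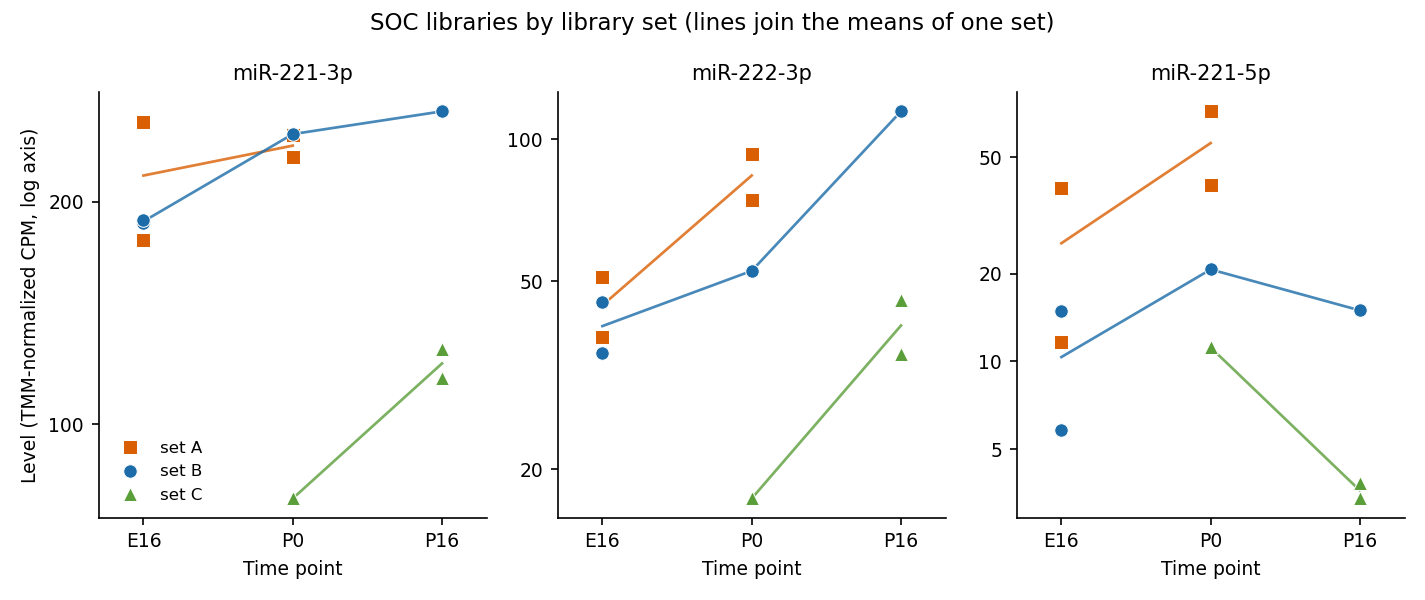
Level of miR-221-3p, miR-222-3p and miR-221-5p in the SOC (TMM-normalized CPM, log axis) by time point, with marker shape and colour for the library set and lines between the means of a set. For miR-222-3p all 3 lines rise, in set B from 35.2 and 45.2 CPM at E16 to 115 at P16, while the sets differ in height.

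**Figure D3:**
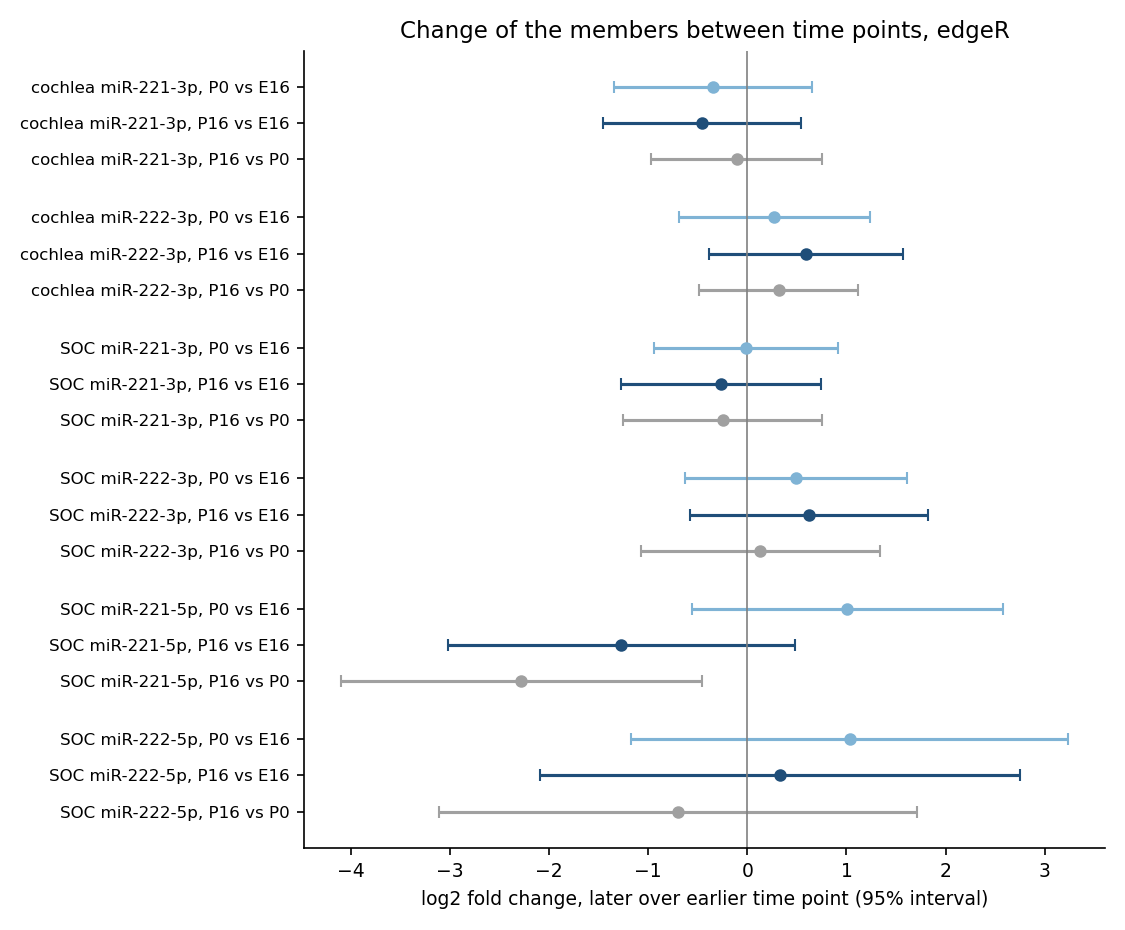
Log2 fold change of each member between time points (points) with its 95% interval from edgeR (whiskers), for the 3p arms in the cochlea and all 4 members in the SOC, over all libraries and without the set as a covariate. Every interval but that of SOC miR-221-5p at P16 vs P0 (-4.10 to -0.46) crosses 0.

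The 5p arms were measurable in the SOC only. In the cochlea miR-221-5p had 1 and 7 counts at E16, 1, 2, 0 and 0 at P0 and 0 in all 4 P16 libraries, and miR-222-5p had a single count, at E16. A count of 0 allows up to 3 counts, or 15.3 to 23.4 CPM in a P16 library, which is above the 12.2 CPM of the higher E16 library. The test of miR-221-5p at P16 vs E16 gave an adjusted p from edgeR of 0.0853 (unadjusted 0.0339) with libraries that did not overlap, and no fold change is given against a group at 0. Such limits cover counting error only.

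In the SOC, miR-221-5p was at 14.9, 11.6, 39.2 and 5.82 CPM at E16, at 20.7, 71.9, 40.1 and 11.2 CPM at P0 and at 15.0, 3.39 and 3.83 CPM at P16. The highest value at E16 and at P0 came from set A, the lowest at P0 and P16 from set C, and P0 and P16 overlapped by 1 pair of libraries (11.2 and 15.0 CPM). Between E16 and P0 the log2 fold change was 1.01 (SE 0.722, 95% interval -0.56 to 2.58), -1.27 at P16 vs E16 (SE 0.805, -3.02 to 0.48) and -2.28 at P16 vs P0 (SE 0.838, -4.10 to -0.46), with adjusted p from edgeR of 0.454, 0.214 and 0.0744. The last was the lowest adjusted p of any member, with an unadjusted p of 0.0182 from the same test. Without replicate 4 of P0 the P16 vs P0 change was -2.62 (adjusted p from edgeR 0.0192) and without replicate 1 of P16 it was -3.24 (0.0192), and both were called. With the set as a covariate it was -1.06 (0.0893), and P0 vs E16 was 1.22 (0.0362), with overlapping libraries. miR-221-5p was also higher at P0 than at E16 in 4 of 4 pairs of same-numbered libraries, although the levels of replicate 3 were close (39.2 and 40.1 CPM). With the replicate number as a block the change was 1.08 (SE 0.687, adjusted p from edgeR 0.393).

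miR-222-5p, the scarcest member, had 25, 0, 1 and 15 counts at E16, 32, 3, 10 and 31 at P0 and 3, 10 and 15 at P16 in the SOC. At most 3.61 CPM were reached, in replicate 4 of P0, and the time points overlapped. Its log2 fold changes of 1.03, 0.33 and -0.70 (P0 and P16 against E16, then P16 against P0) had standard errors of 1.02, 1.11 and 1.11, and adjusted p from edgeR of 0.607, 0.815 and 0.679.

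The balance of the 3p arms needs no normalization, since both are counted in the same library and stem from the same primary transcript. Library kits capture different sequences with different efficiency, so that the ratio at a given time point is not a ratio of molecules, and only its change is compared. In the SOC the ratio of miR-221-3p to miR-222-3p was 5.31, 4.67, 5.03 and 4.19 at E16, 4.69, 3.09, 2.64 and 4.58 at P0 and 2.31, 2.77 and 3.29 at P16. The P16 ratios were all lower than the E16 ratios, and P0 spanned both. The mean log2 ratio was 2.26 ± 0.148 (SD, n = 4), 1.86 ± 0.412 (n = 4) and 1.46 ± 0.255 (n = 3).

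The P16 vs E16 difference of -0.79 on the log2 scale had p = 0.0286 in an exact two-sided permutation test, the smallest this design allows, and 0.171 after Benjamini-Hochberg adjustment over 6 comparisons. It did not pass the threshold after adjustment. Within set B the ratio was 5.31 and 4.19 at E16, 4.69 at P0 and 2.31 at P16, within set A 4.67 and 5.03 at E16 and 3.09 and 2.64 at P0, and within set C 4.58 at P0 and 2.77 and 3.29 at P16. In sets A and C the later libraries had the lower ratio, whereas in set B the P0 library lay between the E16 libraries and only the P16 library lay below them. The sets hold too few libraries for a test of their own.

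In the cochlea the ratio was 1.5 and 0.935 at E16, 1.63, 0.553, 0.349 and 0.865 at P0 and 0.733, 0.206, 0.571 and 0.625 at P16. The P16 libraries again lay below both E16 libraries. The log2 means were 0.24 ± 0.478 (n = 2), -0.46 ± 0.931 (n = 4) and -1.02 ± 0.798 (n = 4), and the P16 vs E16 difference of -1.27 had an exact two-sided permutation p of 0.133, adjusted 0.343, where 0.0667 is the smallest that 2 against 4 libraries can give. The other 4 comparisons of the ratio, 2 in each organ, had differences of -0.70 to -0.39 and adjusted exact permutation p of 0.343 to 0.467. With 1 library left out, the cochlea difference ran from -1.09 (without P0 replicate 1) to -0.36 (without P0 replicate 3 or E16 replicate 1) at P0 vs E16 and from -0.91 (without P0 replicate 3) to -0.17 (without P16 replicate 2) at P16 vs P0. Without the set A libraries the SOC difference was -0.026 at P0 vs E16, -0.77 at P16 vs E16 and -0.75 at P16 vs P0. The counts behind the cochlea ratios were 39 to 240 per library for both arms together, against 831 to 6623 in the SOC.

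**Figure D4:**
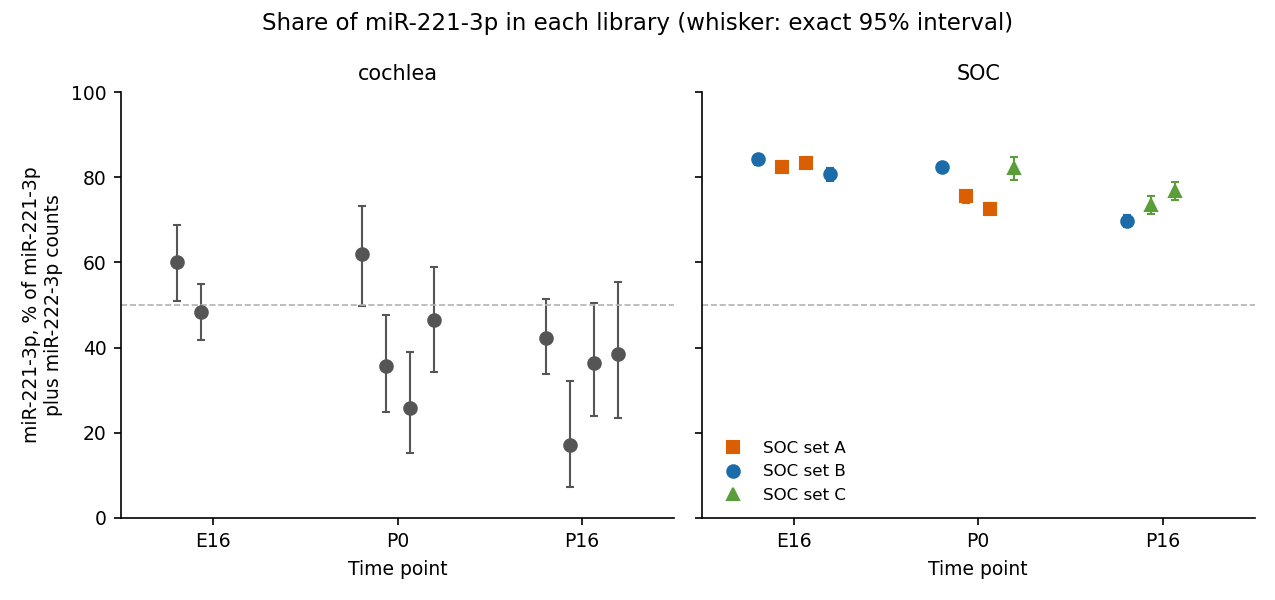
Share of miR-221-3p in the summed counts of miR-221-3p and miR-222-3p (percent, vertical axis) in each library by time point, with exact Clopper-Pearson 95% intervals that cover counting error only. In the SOC the share falls from 80.7% to 84.2% at E16 to 69.8% to 76.7% at P16; in the cochlea it is 48.3% and 60.0% at E16 and 17.1% to 42.3% at P16, with wide intervals.

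As a share, miR-221-3p took 82.7% ± 1.49 of the paired counts in the SOC at E16 (SD, n = 4), 78.1% ± 4.89 at P0 (n = 4) and 73.3% ± 3.46 at P16 (n = 3). The Clopper-Pearson intervals of single SOC libraries were narrow, 82.9% to 85.3% for replicate 1 of E16 and 68.4% to 71.2% for replicate 1 of P16. At P0 those of replicate 1 (81.5% to 83.3%) and replicate 3 (71.2% to 73.9%) were far apart, so that counting error was small beside that spread. At E16 it was not, since the interval of replicate 2 (80.9% to 83.8%) overlapped with that of replicate 1. Only replicate 4 of E16 (79.2% to 82.2%) lay below replicate 1. In the cochlea the interval of the lowest library, replicate 2 of P16, ran from 7.15% to 32.1%.

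The summed level of the 3p arms, the family level, did not pass the test between any time points. In the cochlea the sum was 340 and 417 CPM at E16, 380, 356, 373 and 382 at P0 and 664, 319, 365 and 290 at P16. In the SOC it was 222, 216, 307 and 234 CPM at E16, 299, 304, 340 and 96.6 at P0 and 380, 172 and 150 at P16. Replicate 1 of P16 was high and replicate 4 of P0 was low in their groups, and all time points overlapped. The log2 differences of the sum ran from -0.18 (SOC, P16 vs E16) to 0.055 (cochlea, P16 vs P0), and the adjusted exact permutation p was 0.971 for each of the 6 comparisons. Within set B the SOC sum was 222 and 234 CPM at E16, 299 at P0 and 380 at P16, within set A 216 and 307 CPM at E16 and 304 and 340 at P0, and within set C 96.6 CPM at P0 and 172 and 150 at P16. The later libraries of set B were thus higher, opposite to the pooled SOC difference of -0.18 at P16 vs E16. In set C, which held no E16 library, the P16 libraries were higher than the P0 library, opposite to the pooled -0.13 at P16 vs P0. The E16 and P0 libraries of set A overlapped. A missed threshold does not show that the family level was the same at all time points.

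Which arm of the Mir221 hairpin was counted also differed between SOC libraries. The 5p arm made up 7.37%, 6.15%, 13.3% and 2.99% of the Mir221 counts at E16, 7.72%, 23.8%, 14.0% and 12.3% at P0 and 5.34%, 2.62% and 3.21% at P16. All P0 libraries lay above all P16 libraries, and E16 overlapped both. The exact 95% intervals of the highest and lowest library, 22.4% to 25.3% and 1.80% to 3.67%, were far apart. The share of the 3p arm was 10.7 percentage points higher at P16 than at P0, with an exact two-sided permutation p of 0.0571 and 0.343 after adjustment over 6 arm comparisons. The 0.0286 that 4 against 3 libraries allow was not reached. In each of the 4 pairs of same-numbered libraries the 5p share was higher at P0 than at E16, with a mean difference of -7.03 percentage points in the 3p share. An exact two-sided test over the sign changes of the pairs gave p = 0.125, the smallest that 4 pairs allow. At E16 and P0 the exact 95% intervals overlapped for replicate 1 (6.52% to 8.30% and 7.06% to 8.43%) and replicate 3 (12.1% to 14.5% and 12.9% to 15.2%). The pairing was added after seeing the data, and the labels do not say what a number stands for. Within set C the 5p share was 12.3% at P0 and 2.62% and 3.21% at P16, and within set B 7.72% at P0 and 5.34% at P16.

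Mir222 was counted almost wholly from its 3p arm in the SOC, where the 5p arm took 0% to 3.99% of the counts in 10 libraries and 17.2% in replicate 4 of P0, from 31 of 180 counts. The 3 comparisons of its 3p share gave differences of -3.53, -0.40 and 3.12 percentage points and adjusted exact permutation p of 0.829 each. In the cochlea the share was not compared, because at most 7 counts of a 5p arm were found in a library. Within SOC set A the 5p share of Mir222 was 0% and 0.196% at E16 and 0.372% and 0.833% at P0. Within set B it was 3.99% and 2.80% at E16, 2.68% at P0 and 0.245% at P16. Within set C it was 17.2% at P0 and 2.27% and 3.94% at P16.

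The organs were compared through their changes over time, in a model of all 21 libraries with an organ by time term. A positive value stands for a higher change in the SOC. Organ differences were called by an adjusted p from edgeR under 0.05 alone, with no limit on fold change or overlap. By this rule 11.9% of the 545 miRNAs tested in both organs differed at P0 vs E16 and 16.9% at P16 vs E16. The 3p arms were not among them. For miR-221-3p the difference was 0.27 at P0 vs E16 (95% interval -1.25 to 1.79, adjusted p from edgeR 0.811) and 0.04 at P16 vs E16 (-1.53 to 1.62, 0.989). For miR-222-3p it was 0.09 (-1.40 to 1.57, 0.932) and -0.15 (-1.68 to 1.38, 0.925). These intervals include differences of over 2-fold either way, so that a like course in both organs was not shown.

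A list of other miRNAs known to repress inhibitors of cyclin-dependent kinases, drawn up with results of these data known and so no independent evidence, was set beside the pair. It held miR-24-3p, miR-148a-3p, miR-152-3p, miR-181a-5p, miR-17-5p, miR-20a-5p, miR-93-5p, miR-106b-5p, miR-25-3p and miR-92b-3p, and all 10 were tested in both organs. In the cochlea 0 rose and 6 fell at P0 vs E16, where 7.81% of all miRNAs tested were called higher and 16.6% lower, and 1 rose and 7 fell at P16 vs E16, where 10.9% were called higher and 18.6% lower. The median log2 change of the list was -1.90 and -2.26, against 0 and -0.09 over all miRNAs tested. Unlike the 3p arms of the pair, miR-20a-5p fell from 1387 ± 531 to 53.3 ± 35.6 CPM at P16 (log2 fold change -4.64, SE 0.477, adjusted p from edgeR 6.01e-20), miR-93-5p from 20428 ± 5013 to 1905 ± 606 (-3.42, SE 0.391, 2.34e-16) and miR-25-3p from 64578 ± 3097 to 9284 ± 3368 (-2.80, SE 0.393, 3.97e-11). miR-24-3p rose from 9176 ± 139 to 23675 ± 8938 CPM (1.37, SE 0.429, adjusted p from edgeR 0.00671), a call that was lost when libraries were scaled by their totals alone.

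In the SOC at P0 vs E16 0 of 10 were called (edgeR; 4 were lower at an unadjusted p under 0.05), where 2.45% of all miRNAs were called higher and 4.18% lower, and at P16 vs E16 0 rose and 4 fell, where 21.2% were called higher and 20.0% lower. The list medians were -0.61 and -1.48, against 0.17 and 0.08 over all miRNAs tested. The 4 that fell were miR-148a-3p, from 65.5 ± 18.2 to 9.01 ± 7.11 CPM (log2 fold change -2.86, SE 0.622, adjusted p from edgeR 0.00399), miR-20a-5p, from 682 ± 232 to 138 ± 11.8 (-2.31, SE 0.410, 0.00110), miR-17-5p (-1.55) and miR-106b-5p (-1.52). Without the set A libraries 1 fell, and with the set as a covariate 5 fell. miR-17-5p, miR-20a-5p, miR-93-5p and miR-106b-5p are related in sequence without being identical. The counting may have divided reads between the closest of them, so that their single values are uncertain.

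A second list, drawn up in the same way, held miRNAs that restrain proliferation, let-7a-5p, let-7b-5p, miR-15a-5p, miR-16-5p, miR-195a-5p, miR-497a-5p and miR-34a-5p, the last of which acts downstream of p53. In the cochlea all 7 were tested, with 2 up (let-7a-5p and let-7b-5p) and 1 down (miR-16-5p) at P0 vs E16 (1 up and 2 down when scaled by library totals) and 4 up and 0 down at P16 vs E16, beside the shares of 7.81% and 10.9% called higher and of 16.6% and 18.6% called lower over all miRNAs. In the SOC 6 were tested, with 1 up at P0 vs E16, 3 up at P16 vs E16 and 0 down (edgeR; 0 were lower at an unadjusted p under 0.05), beside 2.45% and 21.2% called higher over all. The list median at P16 vs E16 was 2.26 in the cochlea, against -0.09 over all miRNAs tested, and 2.26 in the SOC, against 0.08. After fitting the set, the SOC median of the list was 0.88 at P16 vs E16, and at P0 vs E16 it was 0.41 in place of 1.16. miR-34a-5p rose from 185 ± 11.5 to 902 ± 301 CPM in the cochlea (log2 fold change 2.28, SE 0.494, adjusted p from edgeR 3.57e-05) and from 54.3 ± 27.1 to 1061 ± 460 CPM in the SOC (4.29, SE 0.647, 0.000442). miR-497a-5p rose in both organs as well, by 2.26 and 3.33 on the log2 scale, as did let-7b-5p, by 3.90 and 5.06, although let-7b-5p averaged only 1.39 CPM in the SOC at E16. The let-7 miRNAs are close in sequence as well, and their single values are uncertain for the same reason.

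**Figure D5:**
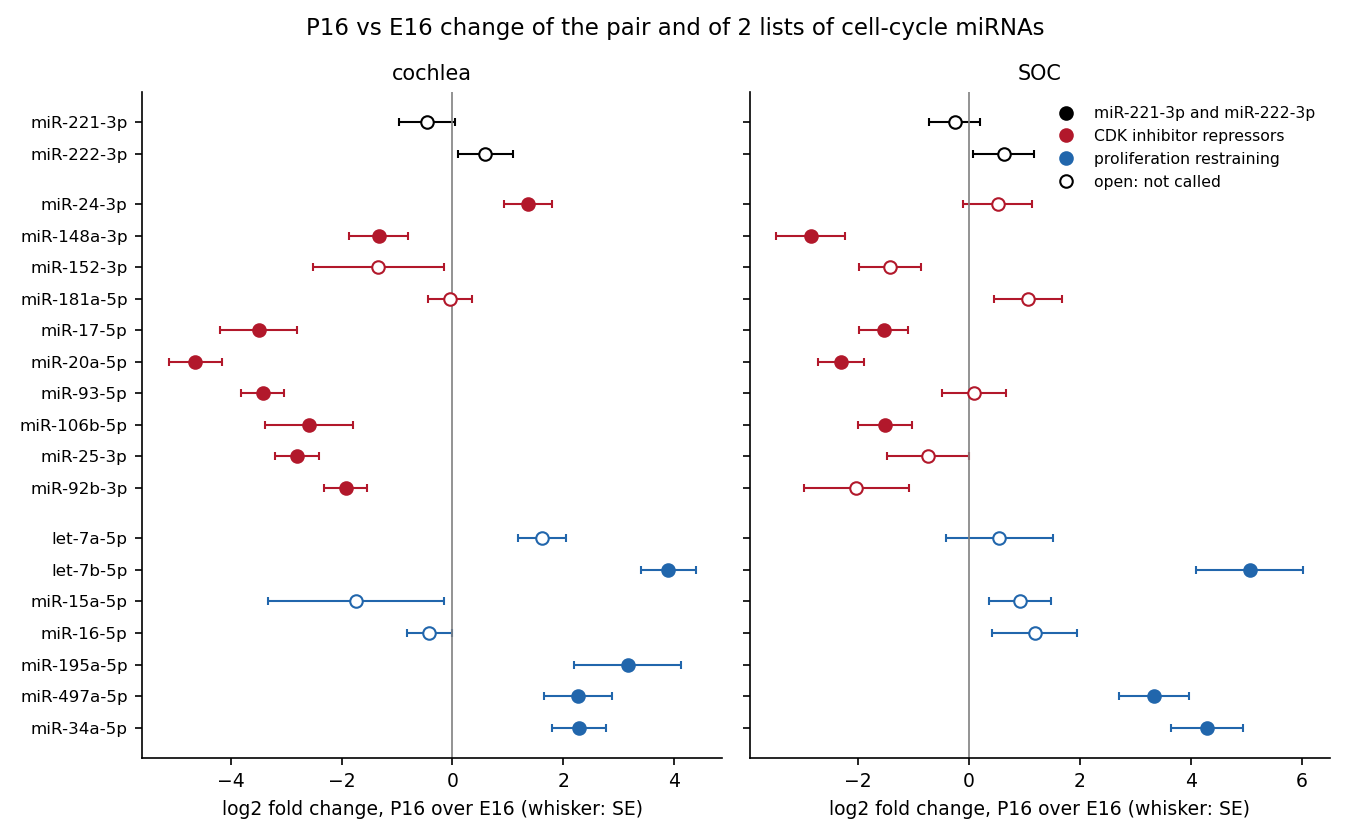
Log2 fold change at P16 vs E16 (horizontal axis, whiskers SE) of the 3p arms and of the 2 lists in the cochlea (left) and the SOC (right), with filled points for called miRNAs. The 3p arms lie at -0.45 and 0.59 in the cochlea and at -0.26 and 0.62 in the SOC, between the mostly lower repressors of CDK inhibitors and the mostly higher proliferation restraining miRNAs; miR-195a-5p was not tested in the SOC.

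These counts moved with the scaling and with the libraries in the fit. With library totals in place of TMM, the median change over all cochlea miRNAs moved by -0.38 at P0 vs E16 and by -0.50 at P16 vs E16, the share of calls that were higher went from 32.0% to 15.6% and from 37.0% to 23.5%, and the repressor list gave 0 rises and 7 falls at both. In the SOC the median at P0 vs E16 moved by 0.12 and the share of higher calls went from 37.0% to 49.0%. A single fit of all 21 libraries changes the scaling and the estimate of the spread together. There the SOC medians moved by 0.14, 0.44 and 0.33 (P0 and P16 against E16, then P16 against P0), the share of higher calls went from 51.4% to 64.9% at P16 vs E16 and from 50.0% to 68.8% at P16 vs P0, and the repressor list gave 1 rise and 2 falls at P16 vs E16. In the cochlea that fit took the share from 32.0% to 20.0% at P0 vs E16, with 23 higher and 92 lower calls in place of 70 and 149, and from 37.2% to 47.5% at P16 vs P0, with 29 and 32 in place of 35 and 59. The cochlea repressor list then gave 0 rises and 3 falls at P0 vs E16 and 0 rises and 5 falls at P16 vs E16, and the proliferation list 0 calls at P0 vs E16 and 3 rises at P16 vs E16.

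Between P0 and P16, 2 of the 10 repressors of CDK inhibitors rose and 4 fell in the cochlea, where 3.91% of all miRNAs tested were called higher and 6.58% lower, with a list median of -0.71 on the log2 scale against 0.05 over all. In the SOC 0 rose and 1 fell, where 8.07% were called in each direction (-0.66 against -0.15). Of the proliferation restraining miRNAs, 2 of 7 rose in the cochlea (list median 1.56) and 1 of 6 in the SOC (1.27, and 0.51 after fitting the set). With library totals the repressors gave 0 rises and 4 falls in the cochlea at P16 vs P0. In the single fit of all libraries they gave 2 rises and 1 fall there and 0 calls in the SOC, and the proliferation list gave 1 rise in the cochlea.

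The miRNAs whose levels followed the pair most closely differed by organ and by arm. Over the 10 cochlea libraries, miR-221-3p was most like miR-191-3p (Pearson r = 0.82 of log2 CPM), miR-7b-5p (0.79) and miR-182-5p (0.77), and miR-222-3p was most like miR-365-3p (0.81), miR-184-3p (0.78) and miR-3968 (0.76), out of 241 miRNAs that averaged 100 CPM or more. Over the 11 SOC libraries, miR-221-3p was most like miR-329-3p (0.95), miR-431-3p (0.90) and miR-145a-5p (0.89), and miR-222-3p was most like miR-1198-5p (0.88), let-7d-3p (0.87) and miR-496a-3p (0.81), out of 174. The arms of the pair had r = 0.83 with each other in the SOC and r = -0.18 in the cochlea. The libraries share their time points, their TMM factors and, in the SOC, their sets, and the cochlea values of the pair rest on 7 to 124 counts, so these coefficients are descriptions.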

How the data were processed

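The authors deposited a table of raw counts, reads per mature miRNA and library, without normalization. The submitters' processing notes name Bowtie2 2.2.5, DESeq2 and mm10, and the study's methods describe alignment with Bowtie to MirGeneDB miRNAs, whereas the table carries miRBase names. Cochlea RNA was prepared with the Direct-zol and SMARTer smRNA-Seq kits, SOC RNA with the innuPrep and TruSeq Small RNA kits, so organ and kit cannot be told apart.

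A miRNA was tested if 2 or more replicates of any time point exceeded 1 CPM. Within each organ the quasi-likelihood test of edgeR 4.0.16 (R 4.3.3, limma 3.58.1) was used with TMM factors. P-values were Benjamini-Hochberg adjusted over all miRNAs tested. Calls needed an adjusted p under 0.05 and a fold over 1.5, limits taken from the study, and libraries that do not overlap, which was chosen here in place of the study's criterion of a consistent direction over replicates. P16 vs P0 was added. The organ difference was an interaction term over 21 libraries, called by an adjusted p under 0.05 alone. Ratios (pseudocount 0.5), arm shares and summed levels were tested by exact two-sided permutation (Python 3.11.15, numpy 2.4.6), and intervals are Clopper-Pearson (scipy 1.17.1). Replicates differed by more than counting noise (chi-square per degree of freedom at least 5.95). Scripts were tested on simulated P16 vs E16 data, where 200 miRNAs per organ were changed 4-fold. The cochlea run recovered 35.0% of these, and 66.3% of those with a mean of at least 30 CPM. For the SOC run the shares were 39.5% and 45.7%. False results were few, 1 of 696 unchanged miRNAs for the cochlea and 2 of 494 for the SOC. A missed threshold can therefore hide a 4-fold change.

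Named miRNAs were the members, miRNAs sharing their seed, 2 lists, and the 3 miRNAs most like each 3p arm at a mean of at least 100 CPM. The members and lists were chosen with earlier results of these data known. Library sets were split at 10% of counts on miR-99b-5p and 1% on miR-191-5p.

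Deviations from the group means correlated between same-numbered SOC libraries of E16 and P0 in 4 of 4 pairs (r = 0.25 to 0.49), and 2 of 12 pairs with different numbers exceeded 0.1. Those 2 were pairs of set A libraries (r = 0.25 and 0.41). The labels do not say what a number stands for. No such pattern of same numbers was found for the other time points or the cochlea. The set C libraries, P0 replicate 4 and P16 replicates 2 and 3, had r = 0.77 and 0.79 between time points. The part of the sets in the pattern of same numbers was not tested. Alternatives were DESeq2 1.42.0, limma-trend, RLE factors, library totals, other filters and call rules, all libraries in a single fit, a replicate block, the library set, a pseudocount of 1, each replicate left out and, added after seeing the data, same-numbered SOC libraries as pairs. Sequences came from RefSeq (GRCm38.p6), and UTRs from GENCODE vM21.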

Additional observations from a re-analysis of the deposited data

Results flagged for a closer look

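Of 26 checks, each of a single quantity over the 4 libraries of a time point and organ, 4 found a library far from the others. The checks share libraries, and the summed level contains miR-221-3p, so their number is not compared with what chance would give. In the SOC at E16, miR-221-3p was at 256 CPM in replicate 3, against 178 to 189 CPM in the others. In the SOC at P0, miR-221-3p was at 79.3 CPM in replicate 4, against 230 to 247 CPM, and the summed level of the 3p arms in the same library was 96.6 CPM, against 299 to 340 CPM. The same library had the highest 5p share of Mir222, 17.2% (31 of 180 counts, exact Clopper-Pearson 95% interval 12.0% to 23.5%), against 0.372% to 2.68% in the other P0 libraries. It was the only P0 library of set C, and its miR-126a-3p level of 7482 CPM was the highest in the SOC. The part of either in these values was not tested.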

How the results depend on the processing

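No alternative over the whole of an organ's libraries led to a call of a member. For SOC miR-221-5p at P16 vs P0 the adjusted p passed under library totals (-2.47, 0.0408), DESeq2 (-2.30, 0.0150), no low-count filter (-2.35, 0.0335) and the replicate block (-2.66, 0.0480), with overlapping libraries, and edgeR called it without P0 replicate 4 or P16 replicate 1. With the set covariate SOC miR-222-3p passed in every comparison (adjusted p from edgeR 0.0371, 0.000188 and 0.00747), also with overlapping libraries. SOC miR-222-5p at P16 vs P0 passed the adjusted p in an alternative as well. Its log2 change ran from -2.03 to 0.64 over the alternatives. The cause of the changes listed here was not tested. Cochlea 3p arms rest on 7 to 124 counts per library.

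With library totals, the log2 change was -0.20 for cochlea miR-222-3p (P0 vs E16), 0.16 for SOC miR-221-3p (P0 vs E16) and -0.037 for SOC miR-222-3p (P16 vs P0), the summed level changed by -0.47 (cochlea, P16 vs E16) and 0.089 (SOC, P0 vs E16), the organ difference of miR-222-3p was 0.49 (P16 vs E16) and 143 miRNAs differed between organs (P0 vs E16). Cochlea miR-221-3p at P16 vs P0 was 0.013 with RLE factors, 0.0095 with DESeq2 and 0.032 with all libraries in a single fit. DESeq2 gave an organ difference of -0.10 for miR-221-3p (P16 vs E16), 120 organ differences (P0 vs E16) and 84 SOC calls (P0 vs E16). SOC miR-221-3p at P0 vs E16 was 0.050 with no filter and 0.15 in the single fit, which gave 0.14 at P16 vs E16 and 115 and 61 cochlea calls (P0 vs E16, P16 vs P0). At least 10 counts in every library left 90, 106 and 52 cochlea calls and 189 SOC calls (P16 vs E16), and members below that minimum had no value.

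The replicate block gave organ differences of -0.22 for miR-222-3p (P0 vs E16) and -0.24 for miR-221-3p (P16 vs E16), and SOC changes at P16 vs P0 of -0.0075 for miR-222-3p and 0.64 for miR-222-5p; it changed no call of a member. The exact test over pairs, added after seeing the data, had adjusted p of 0.5 to 1 for the ratio, arm shares and summed level of the SOC (P0 vs E16). The set covariate gave 169 organ differences and 96 SOC calls (P0 vs E16), an organ difference of 0.90 for miR-222-3p (P16 vs E16), 0.19, 0.60 and 0.41 for SOC miR-221-3p (P0 and P16 against E16, then P16 against P0), and 0.16 for miR-221-5p and -1.19 for miR-222-5p (P16 vs E16). Without the set A libraries edgeR made 0, 104 and 15 SOC calls (73 at an unadjusted p under 0.05 at P0 vs E16), and the log2 change was -0.20 for miR-222-3p (P0 vs E16), -0.65 for miR-222-5p (P16 vs E16) and 0.047 for miR-221-3p (P16 vs P0).

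With each replicate left out in turn, miR-221-3p ran from -0.66 to 0.25 (cochlea, P16 vs P0), -0.14 to 0.32 (SOC, P0 vs E16) and -0.66 to 0.031 (SOC, P16 vs P0), miR-222-3p from -0.019 to 0.60 (cochlea, P0 vs E16) and -0.49 to 0.50 (SOC, P16 vs P0), miR-221-5p from -3.24 to -1.69 (SOC, P16 vs P0), and miR-222-5p from -0.10 to 0.96 (SOC, P16 vs E16) and -1.04 to 0.12 (P16 vs P0). The summed level, in the same order, ran from -0.16 to 0.13, -0.22 to 0.19 and -0.20 to 0.19 in the cochlea and from -0.23 to 0.37, -0.59 to 0.076 and -0.55 to 0.13 in the SOC, and the 3p share of Mir222 from -5.16 to 0.45, -1.36 to 0.49 and -0.86 to 4.76 points. Organ differences ran from -0.37 to 0.65 for miR-221-3p (P16 vs E16) and from -0.17 to 0.52 and -0.76 to 0.32 for miR-222-3p. Calls ran from 112 to 255 and 167 to 282 in the cochlea (P0 and P16 vs E16), from 23 to 60 (P0 vs E16) and 66 to 248 (P16 vs P0) in the SOC, and from 60 to 145 between organs (P16 vs E16).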

Other observations

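Marker miRNAs of other cell types also differed between the time points. Of the 2 endothelial miRNAs, miR-126a-3p was in the table, and it was at 6030 to 6281, 739 to 1429 and 2048 to 6972 CPM in the cochlea at E16, P0 and P16. The 7 epithelial miRNAs of the miR-200 family, miR-203 and miR-205 summed to 14713 to 22593 CPM in the cochlea at E16, 5660 to 7808 at P0 and 2499 to 7054 at P16, and to 926 to 1963, 56.2 to 195 and 49.7 to 146 CPM in the SOC. Leukocyte miRNAs (miR-223-3p and both arms of miR-142a) summed to 1465 to 1629, 209 to 268 and 454 to 766 CPM in the cochlea and to at most 84.3, 73.8 and 42.0 CPM in the SOC. Of the 3 red cell miRNAs, miR-451a and miR-144-3p were at 0 in every P0 and P16 cochlea library, and the list summed to 158 to 177 CPM at E16 there and to 33.1 to 200.2 CPM in the SOC. Muscle miRNAs summed to 218 to 549 CPM in the cochlea at E16 and P0 and to 1098 to 4297 at P16. The higher sum at P16 came from miR-1a-3p alone, at 154 to 294 CPM at P0 and 1067 to 4198 at P16. There miR-206-3p was at 53.5 to 234 CPM at P0 and 25.5 to 99.6 at P16, and miR-133a-3p was at 0 throughout. In the SOC the muscle miRNAs summed to 113 to 292 CPM at E16 and 9.01 to 24.2 later. The oligodendrocyte miRNA miR-338-3p was at 6.42 to 66.5 CPM in the cochlea before P16 and 296 to 490 at P16, and in the SOC at 25.5 to 213 and 403 to 1959 CPM. The neuronal miRNAs summed to 263 to 2300 CPM in the cochlea, and the part of any of these lists in the levels of the pair was not tested.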
